A study of Mus musculus with 8 samples.

Results

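The 10 Polycomb genes Suz12, Ezh2, Ezh1, Eed, Jarid2, Mtf2, Rnf2, Bmi1, Cbx7 and Cbx2 were examined for peaks of 5-hydroxymethylcytosine (5hmC) in all 6 peak lists of the series. They were chosen by name among the 22367 protein-coding genes of the mm9 annotation (GENCODE M1), and all 10 were found there. A peak was assigned to a gene where it overlapped the gene, or the 10 kb on either side, by at least 1 bp. Polycomb proteins keep developmental genes silent. Polycomb repressive complex 2 (PRC2) methylates histone H3 at lysine 27, and Polycomb repressive complex 1 (PRC1) reads that mark and ubiquitinates histone H2A. 5hmC is made from 5-methylcytosine by the TET enzymes, mostly at CpG dinucleotides, and is abundant in embryonic stem cells and brain.

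The study mapped 5hmC by GLIB-Seq, in which 5hmC is glucosylated, oxidized with periodate and tagged with biotin so that the DNA fragments that carry it can be pulled down and sequenced. There was 1 library for each of 6 conditions. They were E14 mouse embryonic stem cells (ESCs), C57BL/6 mouse embryonic fibroblasts (MEFs) labelled as embryonic day 11, adult brain and adult liver of C57BL/6 mice aged 8 weeks, and E14 ESCs into which a hairpin RNA targeting GFP (shGFP) or Suz12 (shSuz12) was transfected. The E14 cells are a single line, and cells that took up a hairpin were selected with puromycin. The methods give a later embryonic day for the MEFs, and the Suz12 hairpin behind this library is not named. RNA-Seq of the hairpin cells was not analysed here. A peak list holds no expression values, so the cell types and the level of Suz12 were not checked here.

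The lists held between 130408 peaks in liver and 217025 in MEFs on the nuclear chromosomes. The score of a peak is the value that MACS gave it, on a scale read here as 10 times the log10 of the p-value with its sign turned. The lists began at a score of 80 in ESCs and liver, 50 in shGFP, 30.3 in shSuz12 and 30 in MEFs and brain, so a peak of score 60 could be listed in brain but not in ESCs. Raw scores therefore do not compare directly between libraries. The strength of a peak is given as the percent of its library's own peaks with a lower score. That percent also depends on where a list begins, so it does not compare directly between lists that begin at different scores. The read depth of the libraries is unknown, and with 1 library per condition no difference between libraries was tested. In the shSuz12 list 13.6% of peaks carried 1 of only 5 score values, and these peaks were narrow (median 358 bp, whole list 564 bp), and in the other lists this share was between 0.32% and 1.28%. These 5 values were on 21 of the 95 shSuz12 peaks described here (22.1%), 13 of them at Jarid2, and the part they play in the shSuz12 results was not tested beyond leaving them out.

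Across the 10 genes with their flanks there were 109 peaks in ESCs, 73 in MEFs, 93 in brain, 109 in liver, 99 in shGFP and 95 in shSuz12 ESCs. At least 1 peak was found at 9 members in ESCs (77.6% of all protein-coding genes had one), 8 in MEFs (75.8%), and all 10 in brain (72.2%), liver (68.0%), shGFP (75.8%) and shSuz12 (76.2%). The members without a peak were Bmi1 in ESCs and Suz12 and Bmi1 in MEFs. The peaks covered 14.7% of the windows in ESCs, 8.78% in MEFs, 14.6% in brain, 16.9% in liver, 11.3% in shGFP and 7.38% in shSuz12. For all protein-coding genes these values were 12.4, 11, 12.8, 13.2, 8.06 and 5.54%. The members as a set were thus somewhat above the background in 5 libraries and below it in MEFs. The background includes the genes of chromosome X, which held only 0.014% (brain) to 0.349% (MEFs) of a list's peaks. All 10 members lie on autosomes, so this background is somewhat low for them. It was not recomputed without chromosome X. In brain the excess rested on Jarid2, and in liver most of it did. Jarid2, by far the longest gene of the set, held 37 of the 109 ESC peaks and 41 of the 73 MEF peaks. Without it 14.7% of the other windows was covered in ESCs, 5.6% in MEFs, 10.9% in brain, 13.5% in liver, 11.6% in shGFP and 6.71% in shSuz12.

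**Figure D1:**
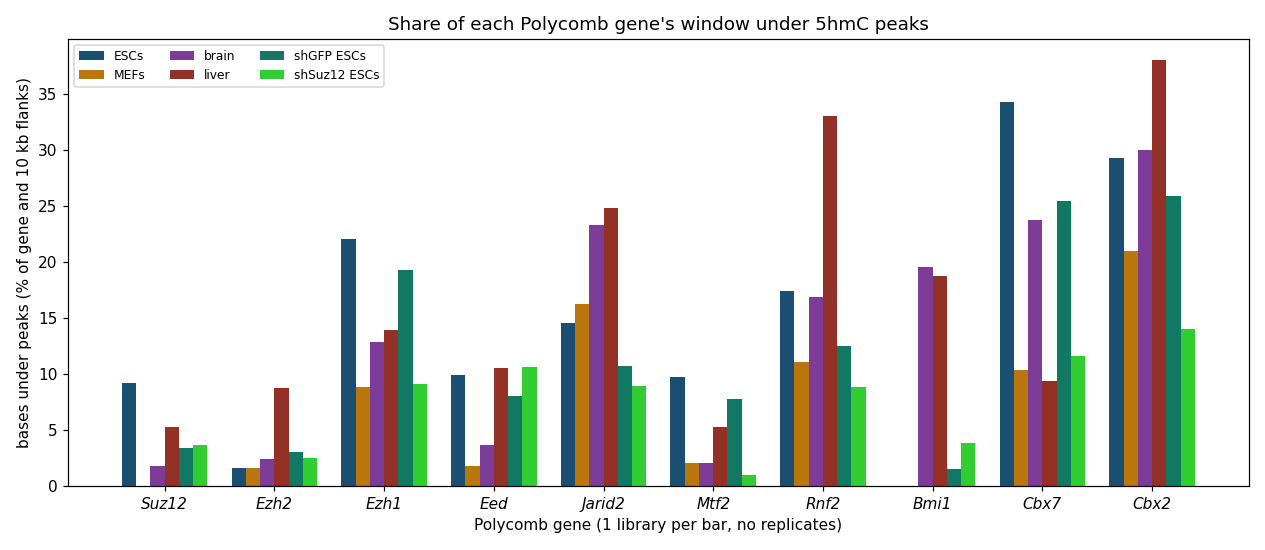
Bars give the percent of each gene and its 10 kb flanks that lay under 5hmC peaks, with 1 bar per library and no replicates. Cbx7 reached 34.3% in ESCs and 9.39% in liver, Rnf2 17.4% and 33%, and Bmi1 had no bar in ESCs and MEFs but 19.5% in brain and 18.7% in liver.

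Most of these peaks were far from the promoter. A peak within 1 kb of the 5′ end of the gene, used as the transcription start site (TSS), was found for 2 members in ESCs (Cbx7 and Cbx2), against 31.9% of all protein-coding genes. The members with such a promoter peak were Jarid2 and Rnf2 in MEFs (background 30.1%) and Jarid2 and Bmi1 in brain (20.0%). In liver they were Ezh1, Jarid2, Rnf2 and Bmi1 (29.4%). In shGFP they were Mtf2, Cbx7 and Cbx2 (27.1%), and in shSuz12 only Cbx2 (21.4%). No member had a promoter peak in both an ESC library and a library of another cell type. The matching share of all protein-coding genes was not counted, and few members had a promoter peak at all, so no split between cell types can be read from this. This split also depends on the 1 kb limit, since the MEF peak upstream of Cbx2 ended 1052 bp from the TSS. At the 5′ end of the gene, Suz12, Ezh2 and Eed had no promoter peak in any library. The promoters of the set differ in CpG content, the dinucleotide CG on which 5hmC mostly sits. In the 1000 bases around the TSS, Bmi1 had 133 CpG, Rnf2 120, Cbx2 111, Suz12 110, Ezh2 93, Eed 88, Ezh1 70, Mtf2 55, Jarid2 39 and Cbx7 30. The median protein-coding gene had 40, so 8 members lay above it and Jarid2 and Cbx7 below. The gene's 5′ end is not the start of every transcript. At Cbx7, 4 further annotated coding starts lie between 37220 and 38579 bp downstream, with 34 to 73 CpG in the same length, and at Jarid2 further starts 1300 to 1364 bp downstream have 98 or 99 CpG. Brain and liver had a peak within 1 kb of the Cbx7 starts from 38467 bp on. They also had one within 1 kb of the Bmi1 starts at 3354 to 4089 bp. An Ezh2 start at 17681 bp had one in liver and shSuz12.

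**Figure D2:**
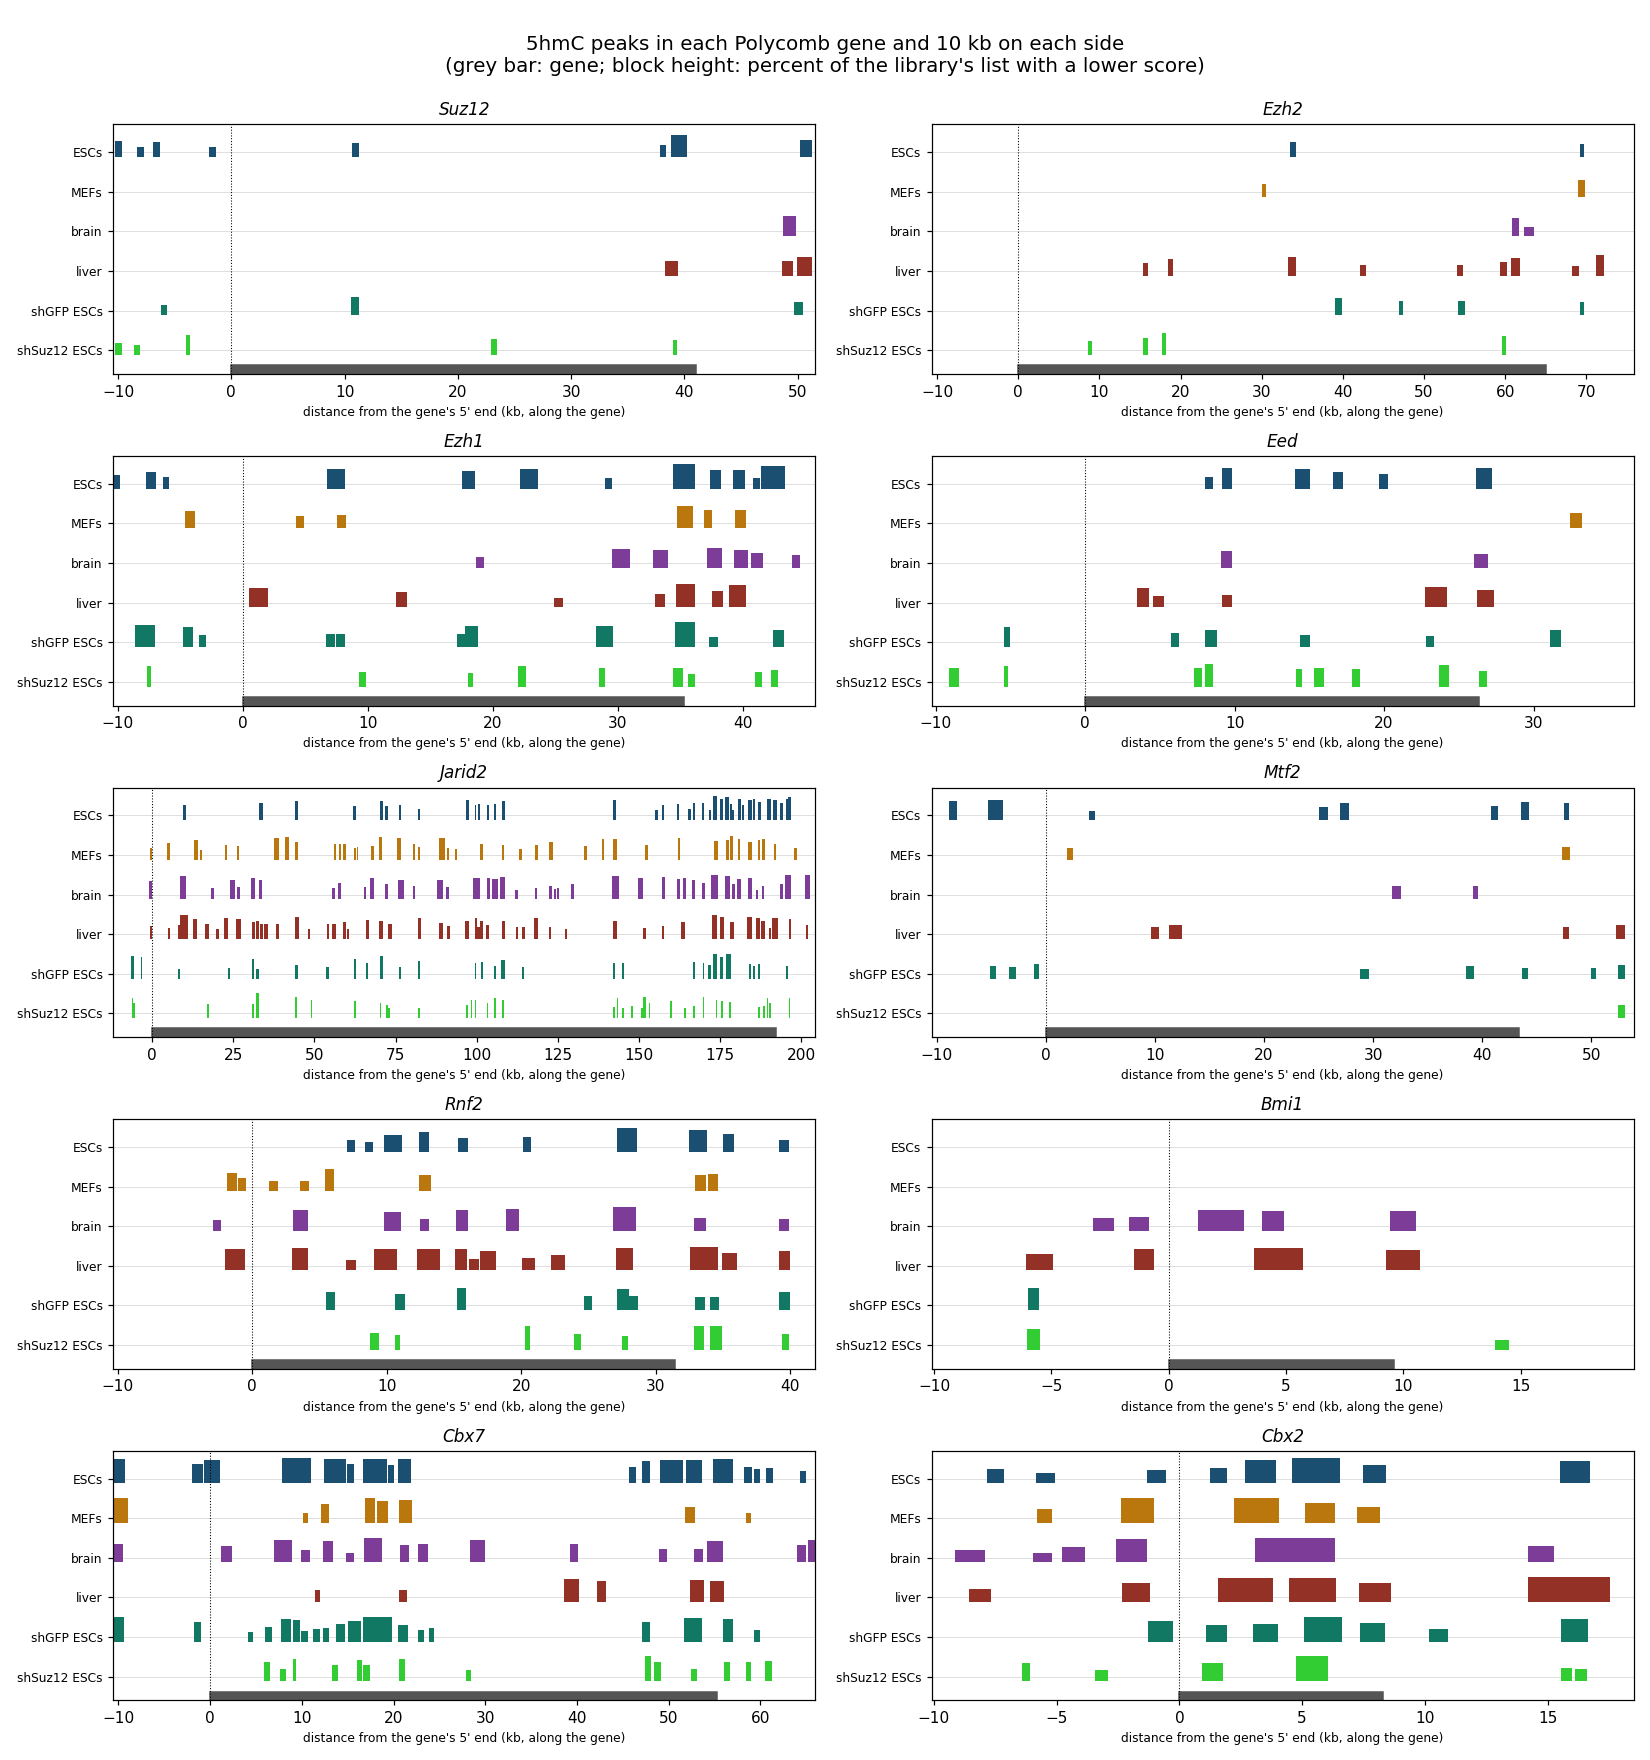
Each panel shows a gene (grey bar) with 10 kb on each side, in kb from its 5′ end along the gene, and 1 row per library. A block is a peak, and its height rises with the percent of its library's peaks that had a lower score, from which the dense ESC row of Cbx7, the empty ESC and MEF rows of Bmi1 and the many peaks of Jarid2 can be read.

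Suz12 is the PRC2 core subunit without which the complex is unstable, and it is the gene targeted by the hairpin. The gene (ENSMUSG00000017548.9) lies on the plus strand at chr11:79806608-79847625. Positions below are in bp from the TSS along the gene, with the score of each peak in parentheses. In ESCs, Suz12 had peaks at -10313 to -9617 (148), -8296 to -7671 (80), -6880 to -6274 (129), -1983 to -1364 (85.8), 10637 to 11234 (115), 37817 to 38335 (98.6), 38769 to 40186 (329.8) and 50177 to 51231 (159). In MEFs, Suz12 and its flanks were free of peaks. The strongest ESC peak was the one at 38769 to 40186, in the last part of the gene, where 75.7% of the list scored lower. In brain, Suz12 had its only peak at 48734 to 49816 (62.8), past the 3′ end. In liver, Suz12 had peaks at 38311 to 39447 (118), 48581 to 49574 (125) and 49957 to 51236 (193). ESCs and liver, whose lists begin at the same score, both had peaks at the 3′ end and beyond it, and only ESCs had peaks upstream. In shGFP ESCs, Suz12 had peaks at -6193 to -5643 (51.4), 10572 to 11312 (99.3) and 49691 to 50448 (64.2). In shSuz12 ESCs, Suz12 had peaks at -10305 to -9627 (39.6), -8619 to -8024 (35.2), -4042 to -3656 (65.4), 22907 to 23410 (48.5) and 39011 to 39366 (45.3). The bases under peaks came to 5613 in ESCs, 2050 in shGFP and 2217 in shSuz12. Suz12 was the only member at least 2-fold lower in shGFP than in ESCs, as 22.3% of all protein-coding genes were. The shSuz12 peaks at -4042 to -3656 and at 39011 to 39366 carried a repeated score, and the other 3 did not.

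Ezh2 is the PRC2 subunit that transfers the methyl groups in dividing cells. The gene (ENSMUSG00000029687.9) lies on the minus strand at chr6:47480273-47545340, and its 3′ flank reaches the neighbouring gene Cul1. It was among the least covered members, with 1.59% of its window under peaks in ESCs. In ESCs, Ezh2 had peaks at 33460 to 34288 (127) and 69260 to 69779 (109). In MEFs, Ezh2 had peaks at 30001 to 30537 (36.4) and 69015 to 69800 (50.9). In brain, Ezh2 had peaks at 60866 to 61705 (53) and 62324 to 63545 (30.1). The nearest peak to the TSS was 33460 bp away in ESCs, 30001 bp in MEFs and 60866 bp in brain. In liver, Ezh2 had 9 peaks, at 15385 to 16019 (99.6), 18488 to 19063 (148), 33253 to 34203 (185), 42137 to 42848 (85), 54101 to 54855 (86.9), 59399 to 60265 (109), 60759 to 61774 (160.1), 68228 to 69093 (82.4) and 71181 to 72204 (242). Liver peaks spread from 15385 to the 3′ flank and covered 8.7% of the window, which put Ezh2 above 51.8% of protein-coding genes there, against 26.6% in ESCs. In shGFP ESCs, Ezh2 had peaks at 39019 to 39849 (82.8), 46933 to 47384 (69), 54236 to 55004 (69.4) and 69269 to 69779 (62.1). In shSuz12 ESCs, Ezh2 had peaks at 8627 to 9052 (44.1), 15398 to 15988 (52.4), 17702 to 18261 (73.5) and 59639 to 60159 (56.8). None of the 4 shSuz12 peaks overlapped a shGFP peak, whereas 53.6% of the whole shSuz12 list did, but 4 peaks are too few to set apart from that share. The bases covered were alike, 2563 in shGFP and 2098 in shSuz12. The bases from 69269 to 69779, in Cul1, were under a peak in ESCs, MEFs and shGFP.

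Ezh1 is the paralog of Ezh2 with weaker methyltransferase activity, found mainly in cells that no longer divide. The gene (ENSMUSG00000006920.8) lies on the minus strand at chr11:101052429-101087777, and Cntnap1 lies past its 3′ end. In ESCs, Ezh1 had 12 peaks, of which 7 were at -10700 to -9799 (116), -7782 to -6945 (155), -6408 to -5938 (94.8), 6714 to 8160 (237), 17564 to 18594 (169), 22157 to 23623 (228) and 29020 to 29579 (89). The other 5 ESC peaks, over the 3′ end and in Cntnap1, were at 34397 to 36192 (683), 37368 to 38297 (217), 39210 to 40177 (195), 40842 to 41422 (89.2) and 41496 to 43382 (404). The peak at 34397 to 36192 was the strongest of the gene, with 92.3% of the ESC list lower. In MEFs, Ezh1 had peaks at -4655 to -3829 (55.5), 4234 to 4868 (35.6), 7577 to 8227 (38.3), 34788 to 36071 (127), 36904 to 37582 (62.7) and 39417 to 40240 (64.9). In brain, Ezh1 had peaks at 18654 to 19292 (31.7), 29553 to 30958 (54.8), 32821 to 34021 (49.7), 37180 to 38377 (58.9), 39295 to 40418 (51.8), 40696 to 41640 (41.1) and 43991 to 44563 (36.1). In liver, Ezh1 had peaks at 494 to 2049 (199), 12253 to 13109 (126), 24908 to 25646 (80.5), 32991 to 33755 (104), 34657 to 36226 (419), 37566 to 38397 (147) and 38882 to 40262 (362). The peak over the 3′ end was also the strongest of the gene in MEFs, where 82.4% of the list was lower, and in liver (86.9%), whereas brain had no peak at that place. The liver peak at 494 to 2049 was the only one within 1 kb of the TSS. In shGFP ESCs, Ezh1 had 11 peaks, at -8638 to -7059 (159), -4789 to -3996 (115), -3524 to -2960 (56.5), 6633 to 7421 (61.5), 7464 to 8170 (62.5), 17168 to 17747 (61.6), 17782 to 18815 (129), 28255 to 29615 (128), 34556 to 36217 (351), 37349 to 38055 (50.4) and 42425 to 43326 (82.4). In shSuz12 ESCs, Ezh1 had 9 peaks, at -7666 to -7330 (65.4), 9286 to 9858 (44.6), 18012 to 18441 (43.9), 22045 to 22704 (66.5), 28481 to 29020 (55.5), 34425 to 35232 (58), 35654 to 36162 (39.4), 41007 to 41567 (45.3) and 42251 to 42855 (51.6). At the 3′ end, the shGFP peak of score 351 was met in shSuz12 by a pair of peaks with scores of 58 and 39.4. The hairpin lists begin at different scores, 50 in shGFP and 30.3 in shSuz12, so neither a score nor a place within the list compares directly between them. The bases covered in the window were 12178 in ESCs, 10681 in shGFP and 5023 in shSuz12. In the 4 cell types together, 761 bp at 39417 to 40177, inside Cntnap1, were under a peak in each of them.

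Eed is the PRC2 core subunit that binds methylated lysine 27 of histone H3 and stimulates the enzyme. The gene (ENSMUSG00000030619.8) lies on the minus strand at chr7:97103166-97129493. In ESCs, Eed had peaks at 8026 to 8541 (94.1), 9149 to 9809 (271), 14024 to 15063 (225), 16589 to 17273 (163), 19685 to 20247 (125) and 26130 to 27250 (263). In MEFs, Eed had its only peak at 32470 to 33278 (44.6), past the 3′ end. In brain, Eed had peaks at 9098 to 9856 (46.4) and 26024 to 26941 (38.1). The MEF library thus had no peak within the gene, and both brain peaks fell where ESCs also had one. In liver, Eed had peaks at 3480 to 4294 (215), 4526 to 5272 (93), 9121 to 9800 (95.7), 22746 to 24225 (219) and 26195 to 27350 (157). The ESC peaks at 9149 to 9809 and, over the 3′ end, at 26130 to 27250 were thus met in brain and in liver. In shGFP ESCs, Eed had peaks at -5454 to -5052 (112), 5766 to 6304 (66), 8023 to 8812 (80.3), 14361 to 15027 (59.8), 22773 to 23366 (53.8) and 31084 to 31818 (86). In shSuz12 ESCs, Eed had 9 peaks, at -9139 to -8448 (55.6), -5458 to -5179 (65.4), 7282 to 7816 (55.9), 8030 to 8524 (78.8), 14079 to 14505 (53.7), 15337 to 16000 (57.1), 17849 to 18410 (54.1), 23679 to 24367 (73.9) and 26331 to 26885 (45.6). Eed was 1 of 3 members, with Suz12 and Bmi1, whose covered bases were not lower in shSuz12 than in shGFP: 4899 against 3728, a ratio of 1.31. At a common score of 80, which few peaks of the shSuz12 list reach, 0 bp remained in shSuz12 and 1928 in shGFP. In shSuz12, 76% of protein-coding genes had less of their window covered than Eed, against 57% in shGFP and 50% in ESCs.

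Jarid2 is an accessory PRC2 subunit of the Jumonji family that helps bring the complex to its targets in ESCs. The gene (ENSMUSG00000038518.8) lies on the plus strand at chr13:44824843-45017012, is 192170 bp long and had the most peaks of the set in every library, 30 to 51. Within 20 kb of the TSS or upstream of it, MEFs had peaks at -704 to -63 (35), 4557 to 5461 (52.3), 12827 to 14185 (76.5) and 14816 to 15362 (31.2). Brain there had peaks at -1079 to 0 (53.6), 8686 to 10328 (106) and 18016 to 18922 (33.6). Liver there had peaks at -782 to -107 (107), 4742 to 5614 (85.6), 7856 to 8460 (117), 8475 to 10967 (556), 12545 to 13962 (232), 16383 to 17409 (128) and 19747 to 20464 (84). In MEFs and liver a peak ended 63 and 107 bp upstream of the TSS, and in brain it reached the TSS. ESCs there had only the peak at 9661 to 10450 (141). The shGFP ESCs there had peaks at -6440 to -5532 (160.0), -3560 to -3177 (149) and 7979 to 8681 (50.7). The shSuz12 ESCs there had peaks at -6347 to -6017 (65.4), -5764 to -5398 (45.3) and 16990 to 17579 (43.8). Near the TSS the ESC libraries thus lacked a peak, and both hairpin libraries had a peak about 6 kb upstream that the ESC list did not hold, with a repeated score in shSuz12.

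Between 20 and 70 kb from the TSS, ESCs had peaks of Jarid2 at 33061 to 34062 (171), 44127 to 45006 (208) and 61953 to 62800 (127). MEFs had 11 peaks in that stretch, at 22468 to 23188 (44.4), 26256 to 26666 (41), 37394 to 39064 (114), 40822 to 42093 (139), 44134 to 45047 (59.9), 55952 to 56726 (47.7), 57588 to 58192 (47.3), 58787 to 59662 (46.7), 62140 to 62727 (35.8), 63073 to 63553 (37.7) and 67347 to 68195 (41.1). Brain had peaks at 24050 to 25479 (60.9), 26221 to 27088 (34.6), 30599 to 31578 (69.2), 33001 to 33966 (57.4), 55330 to 56210 (33.4), 57275 to 58136 (47.1), 65308 to 65990 (36.1) and 67044 to 68414 (73.5). All of these peaks were intronic, and 3 ESC peaks in this stretch compare with 11 in MEFs and 8 in brain. In liver it held 22247 to 23512 (267), 25845 to 27427 (228), 30684 to 31578 (154), 32106 to 33049 (176), 33176 to 34215 (131), 34561 to 35549 (125), 38250 to 39172 (128), 44108 to 45360 (312), 47876 to 48577 (82.1), 53899 to 54545 (124), 55314 to 56597 (126), 58912 to 59755 (155), 59907 to 60504 (81.7) and 65885 to 66837 (196). In shGFP ESCs it held 23490 to 24094 (52.9), 30734 to 31369 (113), 32044 to 32818 (51), 44138 to 44884 (65.1), 53642 to 54491 (56.7), 62129 to 62874 (113) and 66011 to 66486 (73.4). In shSuz12 ESCs it held 30812 to 31401 (43.8), 32147 to 32867 (167), 44095 to 44729 (68.1), 48801 to 49192 (55.1) and 62202 to 62648 (52.3). The shSuz12 peak at 32147 to 32867 was the highest of the members in that library, with 98.8% of the list lower, and it met a shGFP peak of score 51. The ESC peak at 44127 to 45006 was met in MEFs, liver, shGFP and shSuz12 but not in brain.

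Between 70 and 130 kb, the Jarid2 peaks of ESCs were at 70067 to 70965 (219.8), 71783 to 72526 (116), 75920 to 76604 (135), 81931 to 82639 (90.9), 96666 to 97691 (251), 99348 to 99905 (143), 100471 to 100974 (148), 103148 to 103805 (143), 105252 to 105933 (158) and 107657 to 108685 (217). Those of MEFs were at 70023 to 70953 (135), 75468 to 76563 (105), 80443 to 80910 (49), 81963 to 82544 (36.3), 88384 to 90160 (117), 90954 to 91493 (36.1), 93310 to 93762 (31.6), 101144 to 101945 (49.4), 107749 to 108408 (46), 113156 to 113912 (33.4), 118047 to 118746 (46.4) and 122265 to 123518 (57.8). Those of brain were at 71697 to 72568 (42.9), 75813 to 77436 (56), 80244 to 80970 (37.4), 87896 to 89470 (57.9), 90609 to 91574 (36.3), 98833 to 100874 (73.6), 103001 to 104020 (74.4), 104734 to 106618 (64), 107173 to 108677 (86.5), 111851 to 112620 (30.1), 117806 to 118650 (34), 122179 to 123035 (38.5), 123754 to 124279 (31.9), 124634 to 125343 (33.2) and 128983 to 129849 (43.4). The ESC peak at 107657 to 108685 was met in MEFs and in brain. Those of liver were at 70018 to 71072 (173), 72751 to 73803 (128), 81762 to 82886 (251), 88484 to 89487 (137), 90757 to 91733 (109), 96478 to 97663 (171), 99414 to 100041 (271), 100217 to 100935 (93.2), 101046 to 102014 (165), 102979 to 103863 (111), 107773 to 108731 (173), 112071 to 112785 (98.9), 113911 to 114792 (93), 117691 to 118784 (247), 122180 to 122891 (99.4) and 127030 to 127713 (85.3). Those of shGFP ESCs were at 70109 to 71177 (169), 76026 to 76528 (56.1), 81879 to 82594 (88.1), 99390 to 99875 (72.2), 101420 to 101984 (77.1), 105306 to 105889 (61.2), 107515 to 108702 (100.2) and 113856 to 114546 (57.7). Those of shSuz12 ESCs were at 70113 to 70484 (45.3), 71944 to 72559 (42.5), 72807 to 73414 (34.7), 82027 to 82628 (35), 96630 to 97250 (42.2), 98281 to 98679 (55.1), 99533 to 99895 (55.1), 103164 to 103546 (45.3), 105398 to 105839 (62.6) and 107903 to 108251 (55.1). The bases from 107903 to 108251 were under a peak in all 6 libraries, the shSuz12 peak there being 1 of those with a repeated score.

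From 130 kb to the end of the 3′ flank, where most exons lie, the first 12 ESC peaks of Jarid2 were at 141877 to 142749 (264), 154992 to 155751 (85.7), 157100 to 157731 (133), 161764 to 162403 (153), 165125 to 165848 (88), 166467 to 167127 (176), 169369 to 170070 (181), 171437 to 172048 (82.8), 172882 to 174086 (691), 174995 to 175911 (311), 176528 to 177750 (496) and 177925 to 178682 (149). A further 11 ESC peaks were at 178705 to 179231 (81.7), 180355 to 181323 (330.3), 181759 to 182290 (133), 183419 to 184684 (246), 185072 to 185712 (329), 186511 to 187455 (196), 189304 to 190760 (329.9), 191280 to 192605 (278), 193321 to 194192 (162), 195141 to 195956 (303) and 195986 to 196736 (484). MEFs had peaks at 133144 to 133956 (40.2), 138519 to 139265 (84.6), 142026 to 143217 (89), 151781 to 152597 (43.9), 162013 to 162468 (98.5), 173198 to 174184 (70.1), 176821 to 177793 (81), 177963 to 178859 (205), 180415 to 181028 (93.9), 183574 to 184677 (58.8), 186493 to 187179 (77), 187811 to 188627 (85.5), 191443 to 192253 (48.5) and 197734 to 198562 (35.2). ESC peaks were crowded here: 23 of the 37 began beyond 130 kb, and the strongest, at 172882 to 174086, had 92.5% of the list lower. Brain had peaks at 141570 to 143675 (108), 149590 to 151195 (68.9), 156986 to 158110 (88.7), 161680 to 162639 (68.4), 163367 to 164471 (77), 166382 to 167298 (60.2), 169367 to 170365 (44.3), 172156 to 174156 (131), 176345 to 178075 (91.7), 178717 to 179474 (43.3), 180152 to 181300 (61.3), 183486 to 184815 (72), 185902 to 186584 (30.1), 187913 to 188552 (37.9), 193319 to 194288 (41.5), 194989 to 196871 (144) and 201107 to 202716 (125). Liver had peaks at 142034 to 143162 (163), 151263 to 152077 (90.5), 157137 to 157811 (107), 162908 to 164034 (153), 172518 to 174135 (499.9), 174767 to 176110 (305), 177884 to 179142 (148), 183297 to 184809 (297), 185902 to 187300 (241), 187680 to 188755 (179), 189942 to 190580 (88.7), 190814 to 192855 (258), 196013 to 196798 (230.2) and 201253 to 202122 (119). The exon under that peak also carried a peak in brain, with 93.2% of the list lower, and in liver, with 90.4%. The shGFP ESCs had peaks at 141975 to 142548 (76.1), 144712 to 145388 (71.8), 166490 to 167249 (83.3), 169538 to 170023 (72.2), 171105 to 172056 (66.1), 172783 to 174024 (313), 174878 to 175986 (135), 176609 to 178367 (250.3), 183882 to 184598 (67.9), 185140 to 185659 (61.1), 186545 to 187240 (69.9) and 195219 to 195864 (61.8). The shSuz12 ESCs had peaks at 141996 to 142533 (37.9), 143181 to 143551 (65.4), 144831 to 145410 (36), 147592 to 148104 (39.2), 150549 to 151124 (36.1), 151245 to 152138 (70.5), 152972 to 153357 (45.3), 159441 to 160050 (51.3), 163931 to 164520 (35.5), 166720 to 167212 (40.2), 169589 to 170072 (69.4), 173555 to 173953 (55.1), 175116 to 175844 (53.6), 177824 to 178355 (46.9), 186629 to 187183 (37.1), 188167 to 188841 (39.7), 189514 to 189834 (65.4), 190015 to 190563 (45.9) and 196195 to 196551 (65.4). At that exon the shGFP peak spanned 172783 to 174024 and the shSuz12 peak, with a repeated score, 173555 to 173953.

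Over the whole of Jarid2, 85 separate regions were under a peak in some library, 25 of them in only 1 library and 5 in all 6. The 5 included 4 with bases common to all 6 libraries, at 107903 to 108251, 142034 to 142533, 173555 to 173953 and 177963 to 178075. The longest of these is shown as the longest place of the gene shared by the 4 cell types and both hairpins, with each CpG (CG, read alike on both strands) in capitals. It lies in an intron, and the 300 bases are the middle of the 500 bp stretch, on the plus strand at chr13:44966977-44967276.
Jarid2: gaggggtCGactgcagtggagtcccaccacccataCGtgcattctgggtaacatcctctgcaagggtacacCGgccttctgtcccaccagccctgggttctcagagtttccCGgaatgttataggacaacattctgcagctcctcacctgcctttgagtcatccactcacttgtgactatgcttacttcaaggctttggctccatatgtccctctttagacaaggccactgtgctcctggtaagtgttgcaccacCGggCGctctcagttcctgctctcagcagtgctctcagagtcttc
They hold 6 CpG, a number reached by 9.34% of all 300-base tiles of the assembly. Without the repeated shSuz12 scores, Jarid2 kept 24 of its 37 shSuz12 peaks and 14190 of 18980 bases covered, against 22771 in shGFP.

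Mtf2, also known as Pcl2, is an accessory PRC2 subunit that binds CpG-rich DNA. The gene (ENSMUSG00000029267.10) lies on the plus strand at chr5:108494693-108538023, and Tmed5 lies at its 3′ end. In ESCs, Mtf2 had 8 peaks, at -8876 to -8083 (235), -5244 to -3871 (245), 3923 to 4525 (80), 25072 to 25832 (108), 26969 to 27785 (176), 40839 to 41425 (118), 43573 to 44320 (190.0) and 47478 to 47945 (167). In shGFP ESCs, Mtf2 had 8 peaks, at -5128 to -4532 (60), -3386 to -2762 (57.3), -1056 to -601 (68.5), 28800 to 29661 (50.3), 38492 to 39215 (61), 43684 to 44201 (54.6), 49925 to 50450 (53.8) and 52481 to 53109 (63.4). In shSuz12 ESCs, Mtf2 had its only peak at 52485 to 53094 (42.7), in Tmed5. The shSuz12 list thus had no peak in the gene or upstream of it, and the bases covered went from 4937 in shGFP to 610, the lowest ratio of the set at 0.124. All 8 shGFP peaks were weak for their list, with between 0.589 and 31.4% of it lower, and none was among the upper 50% or at a score of 80 or more. The ESC peaks were stronger within their list, 3 of them among its upper 50%. In MEFs, Mtf2 had peaks at 1949 to 2538 (35.6) and 47340 to 48052 (36.9). In brain, Mtf2 had peaks at 31750 to 32576 (38.7) and 39191 to 39649 (37.2). In liver, Mtf2 had peaks at 9643 to 10349 (95.5), 11282 to 12500 (119), 47373 to 47955 (94.8) and 52299 to 53095 (118). The bases from 47478 to 47945, in Tmed5, were common to ESCs, MEFs and liver, and no bases were common to all 4 cell types.

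Rnf2, or Ring1B, is the ubiquitin ligase of PRC1. The gene (ENSMUSG00000026484.7) lies on the minus strand at chr1:153316536-153347953. In ESCs, Rnf2 had 10 peaks, at 7065 to 7673 (92.8), 8419 to 8996 (80.4), 9764 to 11111 (159.5), 12429 to 13118 (246), 15329 to 16040 (119), 20142 to 20705 (124), 27136 to 28614 (490.2), 32443 to 33795 (367), 34953 to 35837 (174) and 39182 to 39920 (98.6). In MEFs, Rnf2 had peaks at -1892 to -1160 (65.9), -1075 to -472 (38.5), 1252 to 1888 (31.5), 3571 to 4208 (31.4), 5379 to 6115 (109), 12378 to 13311 (53.7), 32944 to 33701 (53.7) and 33907 to 34589 (57.3). In brain, Rnf2 had peaks at -2923 to -2351 (32.9), 3029 to 4122 (71.5), 9822 to 11057 (57.8), 12435 to 13112 (33.6), 15137 to 16023 (71.5), 18887 to 19801 (74.9), 26799 to 28495 (106), 32851 to 33695 (36.8) and 39154 to 39932 (34.9). The ESC peak at 27136 to 28614 was the strongest of the gene there, with 86.4% of the list lower. So was the brain peak it met (88.6%), and MEFs had none at that place. In liver, Rnf2 had 14 peaks, of which 7 were at -2040 to -521 (273), 2957 to 4169 (342), 6961 to 7698 (85.2), 9070 to 10749 (259.5), 12226 to 13937 (306), 15056 to 15959 (271) and 16115 to 16881 (94.1). The other 7 liver peaks were at 16914 to 18087 (199.9), 20059 to 20982 (99.6), 22220 to 23221 (128), 27046 to 28306 (322), 32502 to 34630 (418), 34896 to 36053 (167) and 39144 to 39943 (213). Liver covered 33% of the window, against 17.4% in ESCs, and 81.8% of protein-coding genes had less in liver. An upstream peak that came within 521 bp of the TSS in liver and 472 bp in MEFs had no counterpart in the 3 ESC libraries. In shGFP ESCs, Rnf2 had peaks at 5455 to 6172 (94.9), 10618 to 11328 (75), 15200 to 15905 (143), 24649 to 25230 (68.2), 27137 to 27989 (129), 28005 to 28646 (68.7), 32892 to 33618 (60.7), 34001 to 34697 (63.4) and 39160 to 39965 (92). In shSuz12 ESCs, Rnf2 had peaks at 8776 to 9408 (50.1), 10586 to 10968 (45.3), 20297 to 20642 (87.4), 23908 to 24453 (46.1), 27485 to 27928 (43), 32822 to 33600 (96.5), 34027 to 34880 (91.1) and 39374 to 39921 (46). The pair of peaks past the 3′ end, from 32822 to 34880, was present in both hairpin lists, with 90.4 and 88.7% of the shSuz12 list lower, and the bases covered in the window were 4533 against 6442.

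The region past the 3′ end of Rnf2 was the place of the gene common to all 6 libraries, at 32944 to 33600. Its middle 300 bases, on the plus strand at chr1:153314532-153314831, are shown because this place lies outside the annotated gene. CpG are in capitals.
Rnf2: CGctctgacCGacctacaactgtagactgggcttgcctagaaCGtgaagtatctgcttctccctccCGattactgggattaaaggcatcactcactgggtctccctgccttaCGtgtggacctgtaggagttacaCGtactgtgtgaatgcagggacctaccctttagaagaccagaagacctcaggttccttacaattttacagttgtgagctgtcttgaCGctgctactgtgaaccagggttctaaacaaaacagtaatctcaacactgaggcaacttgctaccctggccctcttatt
They hold 7 CpG, a number reached by 6.17% of 300-base tiles.

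Bmi1 is the PRC1 subunit that pairs with Rnf2 and stimulates it. The gene (ENSMUSG00000026739.7) lies on the plus strand at chr2:18598645-18608256, with Commd3 just upstream. In ESCs and in MEFs, Bmi1 and its flanks were free of peaks. In brain, Bmi1 had peaks at -3225 to -2345 (36.1), -1707 to -837 (40), 1256 to 3193 (72.6), 3954 to 4913 (64.9) and 9409 to 10536 (63.8). In liver, Bmi1 had peaks at -6080 to -4926 (148), -1496 to -631 (269.9), 3616 to 5702 (362) and 9271 to 10700 (250.3). Both adult tissues had a peak upstream close to the TSS (837 bp away in brain and 631 bp in liver), a peak within the gene that began at 3954 in brain and 3616 in liver, and a peak over its 3′ end. In liver 83.4% of the list was lower than the peak at 3616 to 5702. The liver and ESC lists begin at the same score, 80, and the brain and MEF lists at the same score, 30. In shGFP ESCs, Bmi1 had its only peak at -5996 to -5544 (145). In shSuz12 ESCs, Bmi1 had peaks at -6048 to -5507 (65) and 13921 to 14522 (35). The peak about 6 kb upstream was thus in both hairpin libraries and in liver but not in ESCs, and the gene itself was free of peaks in all 3 ESC libraries. Bmi1 was the only member at least 2-fold higher in shSuz12 than in shGFP, with 1144 bp covered against 453, and 6.97% of all protein-coding genes were. The ratio was 2.53 and rests on 1 shGFP and 2 shSuz12 peaks, and at a common score of 80 the shGFP peak alone remained. The 1000 bases around the Bmi1 TSS, which hold the most CpG of the set (133), had no base under a peak in any of the 6 libraries.

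Cbx7 is a chromodomain protein that binds methylated lysine 27 of histone H3 and is the main CBX subunit of PRC1 in ESCs. The gene (ENSMUSG00000053411.9) lies on the minus strand at chr15:79746237-79801549, with Apobec3 in its 3′ flank. In ESCs, Cbx7 had 18 peaks, of which 9 were at -11044 to -9296 (695), -1948 to -835 (232), -631 to 1035 (531), 7813 to 10964 (1161), 12385 to 14819 (659), 14912 to 15675 (227), 16655 to 19337 (753), 19345 to 20085 (186) and 20432 to 21922 (788). The other 9 ESC peaks were at 45702 to 46416 (154), 47089 to 48003 (398), 49087 to 51560 (533), 51881 to 53681 (457), 54818 to 57028 (594), 58261 to 59129 (162), 59309 to 59928 (120.4), 60573 to 61355 (137) and 64285 to 64959 (97.8). They formed a 5′ block that ended at 21922 and a 3′ block that began at 45702. The peak at 7813 to 10964 had 97.4% of the ESC list lower, and the peak at -631 to 1035 lay over the 5′ end of the gene with 88%. In liver, Cbx7 had 6 peaks, at 11430 to 11935 (101), 20578 to 21494 (101), 38586 to 40180 (375), 42138 to 43145 (271), 52346 to 53823 (329) and 54457 to 56027 (273). The liver peak at 38586 to 40180 begins just past the annotated internal starts, where ESCs had no peak. ESC peaks covered 34.3% of the window and liver peaks 9.39%, whereas Rnf2, Ezh2 and Bmi1 were more covered in liver. In MEFs, Cbx7 had peaks at -10905 to -8957 (446), 10160 to 10719 (30.1), 12075 to 12905 (68.8), 16888 to 17942 (294), 18199 to 19388 (118), 20640 to 22051 (146), 51737 to 52879 (47.9) and 58430 to 58973 (31.5). In brain, Cbx7 had 16 peaks, of which 8 were at -10583 to -9549 (52.4), 1222 to 2413 (47.8), 6927 to 8869 (80.5), 9927 to 10863 (36.3), 12284 to 13413 (77.1), 14797 to 15652 (30.3), 16784 to 18746 (166) and 20706 to 21707 (50). The other 8 brain peaks were at 22707 to 23787 (53.5), 28309 to 29929 (85.5), 39198 to 40140 (53.6), 48895 to 49778 (38.6), 52723 to 53702 (37.7), 54235 to 55935 (76.6), 63994 to 64988 (50.7) and 65180 to 66955 (86.5). The peak at -10905 to -8957 had 98.9% of the MEF list lower, and the one at 16784 to 18746 had 96.4% of the brain list lower. ESCs, MEFs, brain and shGFP all had a peak about 10 kb upstream and a peak that began between 16655 and 16888 in the intron, and liver had neither.

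In shGFP ESCs, Cbx7 had 20 peaks, of which 13 were at -11136 to -9437 (312), -1754 to -991 (111), 4080 to 4708 (50.8), 5929 to 6715 (67.8), 7724 to 8811 (166), 9000 to 9745 (153), 9877 to 10627 (52.8), 11179 to 11981 (60.4), 12301 to 12929 (63.4), 13759 to 14712 (90.3), 15030 to 16476 (120.4), 16668 to 18719 (316) and 18760 to 19866 (259.8). The other 7 shGFP peaks were at 20504 to 21524 (84.2), 22631 to 23312 (58.5), 23856 to 24390 (66.4), 47091 to 48018 (106), 51719 to 53676 (213), 55947 to 57032 (159) and 59340 to 59964 (57.3). In shSuz12 ESCs, Cbx7 had 14 peaks, at 5851 to 6501 (57.9), 7589 to 8245 (40.5), 8986 to 9389 (76.2), 13277 to 13956 (47.6), 16017 to 16532 (66.9), 16716 to 17394 (47.7), 20613 to 21250 (77.5), 27937 to 28480 (37.6), 47435 to 48044 (133), 48398 to 49153 (60.8), 52457 to 53113 (40.5), 56051 to 56685 (58.8), 58415 to 59032 (59.9) and 60522 to 61233 (63.3). The shGFP peaks about 10 kb upstream (95.6% of the list lower) and at -1754 to -991 had no counterpart in shSuz12, so that no shSuz12 peak lay upstream of the gene. The second of these counted as a promoter peak by only 10 bp. In the intron, a shGFP peak at 16668 to 18719 met a narrower shSuz12 peak at 16716 to 17394. In the 3′ block, the peak at 47435 to 48044 had 97% of the shSuz12 list lower and met a shGFP peak. The bases covered were 25815 in ESCs, 19156 in shGFP and 8757 in shSuz12, a ratio of 0.457.

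The bases of Cbx7 common to all 6 libraries were at 20706 to 21250, in the intron, and at 52723 to 52879, in an exon. The middle 300 bases of the first, on the plus strand at chr15:79780422-79780721, are shown since they are the only intronic place of the gene that all the libraries shared. CpG are in capitals.
Cbx7: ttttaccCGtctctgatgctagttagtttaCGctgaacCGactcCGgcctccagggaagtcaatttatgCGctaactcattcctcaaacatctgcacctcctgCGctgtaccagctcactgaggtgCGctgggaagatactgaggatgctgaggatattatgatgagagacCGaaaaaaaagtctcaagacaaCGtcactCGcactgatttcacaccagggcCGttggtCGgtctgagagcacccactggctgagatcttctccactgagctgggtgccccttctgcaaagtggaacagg
They hold 12 CpG, a number reached by 1.37% of 300-base tiles.

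Cbx2 is a chromodomain subunit of PRC1 that compacts chromatin. The gene (ENSMUSG00000025577.7) lies on the plus strand at chr11:118884276-118892584, is 8309 bp long, and has its paralog Cbx8 in the 3′ flank. In ESCs, Cbx2 had 8 peaks, at -7823 to -7138 (119.7), -5823 to -5068 (86.5), -1321 to -559 (108), 1229 to 1954 (141), 2690 to 3943 (464), 4566 to 6531 (1691), 7472 to 8398 (189.9) and 15496 to 16707 (358). In MEFs, Cbx2 had peaks at -5818 to -5198 (41.2), -2376 to -1052 (260.1), 2204 to 4050 (355), 5104 to 6341 (79.7) and 7241 to 8156 (51.2). In brain, Cbx2 had peaks at -9122 to -7912 (35.6), -5982 to -5183 (30), -4785 to -3866 (43.7), -2591 to -1322 (105), 3066 to 6333 (181) and 14213 to 15237 (47.5). The ESC peak at 4566 to 6531 had the highest score of any peak of the set, 1691, with 98.9% of the list lower. In liver, Cbx2 had peaks at -8556 to -7687 (104), -2334 to -1214 (201), 1582 to 3814 (495), 4459 to 6387 (704), 7313 to 8601 (202) and 14211 to 17515 (833). Peaks between 14211 and 17515, in liver and in the other lists, lie in Cbx8. The liver peak there came within 492 bp of the Cbx8 TSS and is also the liver promoter peak of Cbx8. In shGFP ESCs, Cbx2 had peaks at -1266 to -273 (127), 1083 to 1954 (85.3), 2996 to 3996 (85.9), 5067 to 6604 (297), 7340 to 8380 (94.8), 10171 to 10946 (62.6) and 15559 to 16658 (187). In shSuz12 ESCs, Cbx2 had peaks at -6410 to -6069 (55.1), -3430 to -2899 (38.2), 908 to 1764 (55.6), 4767 to 6060 (156), 15523 to 15976 (42.4) and 16119 to 16606 (40.5). A peak over the 3′ part of the gene was present in all 6 lists and ranked high in 5 of them, with 97.2% of the list lower in brain, 95% in liver, 95% in shGFP and 98.4% in shSuz12, and with 65.7% in MEFs. In MEFs the peak at 2204 to 4050 ranked higher (97.8%). Close to the TSS the libraries differed. ESCs and shGFP had a peak that came within 559 and 273 bp of it from upstream. MEFs, brain and liver had their upstream peak farther away, ending 1052, 1322 and 1214 bp from the TSS. The shSuz12 library had no such peak, and it counted as having a promoter peak through the peak at 908 to 1764.

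The bases at 5104 to 6060 of Cbx2, in an exon, were the longest stretch of the set under a peak in all 6 libraries, at 957 bp. Its middle 300 bases, on the plus strand at chr11:118889709-118890008, are all coding, and CpG are in capitals.
Cbx2: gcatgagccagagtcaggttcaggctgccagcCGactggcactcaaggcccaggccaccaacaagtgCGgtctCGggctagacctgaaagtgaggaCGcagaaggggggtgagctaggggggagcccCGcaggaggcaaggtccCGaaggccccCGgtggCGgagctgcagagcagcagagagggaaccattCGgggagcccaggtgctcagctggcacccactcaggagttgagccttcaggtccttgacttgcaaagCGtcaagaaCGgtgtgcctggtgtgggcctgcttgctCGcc
They hold 12 CpG at 64.7% G and C, and 1.37% of 300-base tiles hold as many. The mean tile holds 2.49 CpG, so all 4 stretches shown are richer in CpG than the assembly. The lists as a whole were too: 1.85 CpG per 100 bases under ESC peaks and 1.47 under liver peaks, against 0.834 in the assembly. Under the members' peaks the values were 1.7 in ESCs, 1.51 in MEFs, 1.55 in brain, 1.45 in liver, 1.76 in shGFP and 1.7 in shSuz12, at or below those of the whole lists.

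Comparing the 4 cell types, 5 of the 10 members had at least 1 bp under a peak in all 4, namely Ezh1, Jarid2, Rnf2, Cbx7 and Cbx2 (36.1% of all protein-coding genes). In all 6 libraries it was Jarid2, Rnf2, Cbx7 and Cbx2 (24.0%). The PRC2 core genes other than Ezh1 had no such place, and neither had Mtf2 and Bmi1. The 228 separate regions under a peak at the members were in a single library in 94 cases and in all 6 in 9. Of the ESC peaks, 33.9% met a MEF peak (95% exact binomial interval 25.1 to 43.6%), below the 48% of the whole ESC list, and 29.2% did without Jarid2. In the other direction, 49.3% of the MEF peaks met an ESC peak (37.4 to 61.3%), above the 38.7% of the whole MEF list, and 65.6% did without Jarid2. Brain peaks met a liver peak in 54.8% of cases (44.2 to 65.2%), against 39.3% of the whole brain list, and in 50% without Jarid2. These intervals cover counting error only and treat neighbouring peaks of a gene as independent. Within the genes, 31 of the 74 ESC peaks with their midpoint inside a member lay in the last 25% of the gene's length (41.9%), against 28.5% over all protein-coding genes, and 10 in the first 25% (13.5% against 23.7%). Without Jarid2 it was 12 of 40 in the last 25% (30%), near the background, and 7 in the first (17.5%). In liver 25.6% lay in each of these outer parts, and without Jarid2 21.1% in the first and 28.9% in the last. In shGFP ESCs 29.4% lay in the last 25%, near the background of 28.3%. In shSuz12 ESCs it was 37.7% (background 28.4%), and 28.6% without Jarid2.

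**Figure D3:**
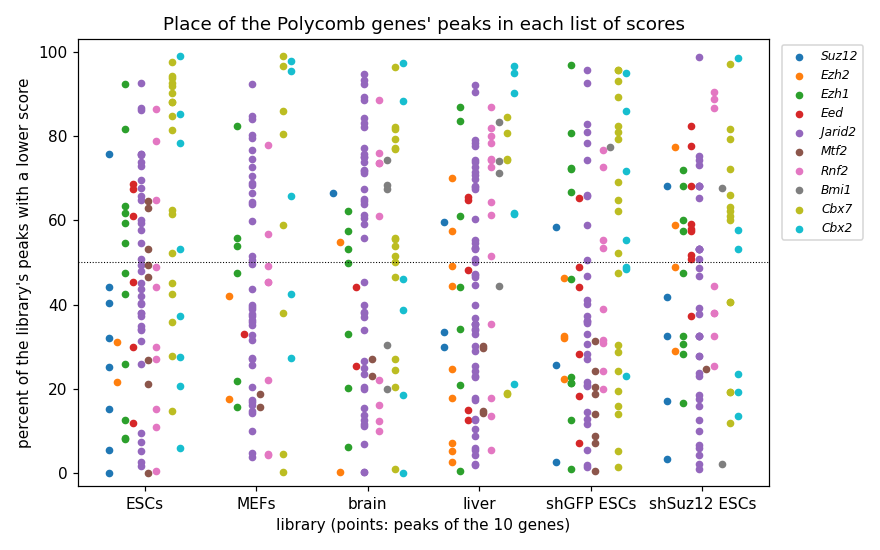
Each point is a peak of the 10 genes, placed by the percent of its library's peaks that had a lower score, with the dotted line at 50%. Points of Cbx7 and Cbx2 reach the top in ESCs, and those of Mtf2 lie below 32% in shGFP ESCs.

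In their own lists the members' peaks were of ordinary strength. The median member peak had 47.4% of the list lower in ESCs, 42.4% in MEFs, 54% in brain, 47.3% in liver, 36% in shGFP and 48.6% in shSuz12. In ESCs 9 of the 109 peaks were among the top 10% of the list. They were 6 at Cbx7, and 1 each at Ezh1, Jarid2 and Cbx2.

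The hairpin libraries were set against each other to see how the members' 5hmC differed when Suz12 was targeted. Bases under peaks in the 10 windows came to 80103 in shGFP and 52228 in shSuz12, a ratio of 0.652. Over all protein-coding genes the ratio was 0.687, close to that of the members. For the members it was 0.58 without Jarid2, 0.713 without Cbx7 and 0.557 without the repeated scores. The background was not recomputed without those scores. The median of the members' own ratios was 0.761, against 0.668 for all genes covered in shGFP. Covered bases were at least 2-fold lower in shSuz12 at Ezh1 (0.47), Mtf2 (0.124) and Cbx7 (0.457), which is 3 of 10 members against 20.4% of all protein-coding genes. Cbx2 (0.542) was lower by less than that. Rnf2 (0.704), Jarid2 (0.834) and Ezh2 (0.819) were lower too but lay above the median gene, 0.668. Suz12 (1.08), Eed (1.31) and Bmi1 (2.53) were not lower in the lists as given, and the matching share of all protein-coding genes was not counted. At a common score of 80 all 3 were lower: Suz12 went from 741 bp in shGFP to 0 in shSuz12, Eed from 1928 to 0 and Bmi1 from 453 to 0. That cut keeps 23594 of the 138705 shSuz12 peaks and 74496 of the 132996 shGFP peaks. It thus takes far more from the shSuz12 list, and the same values over all genes were not computed. The fall at this cut therefore cannot be read as a trait of these genes. With equal numbers of peaks Suz12 was lower (1621 against 2050 bp), whereas Eed (4899 against 3728) and Bmi1 (542 against 453) were not. A promoter peak in shGFP and none in shSuz12 was found for Mtf2 and Cbx7, 2 of 10 members (12.0% of all protein-coding genes). The reverse was found for 0 members (6.25%). Of the 99 shGFP peaks 47.5% met a shSuz12 peak (37.3 to 57.8%), close to the 50.5% of the whole list, and 62.6% met an ESC peak (52.3 to 72.1%), below the 76.3% of the whole list.

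**Figure D4:**
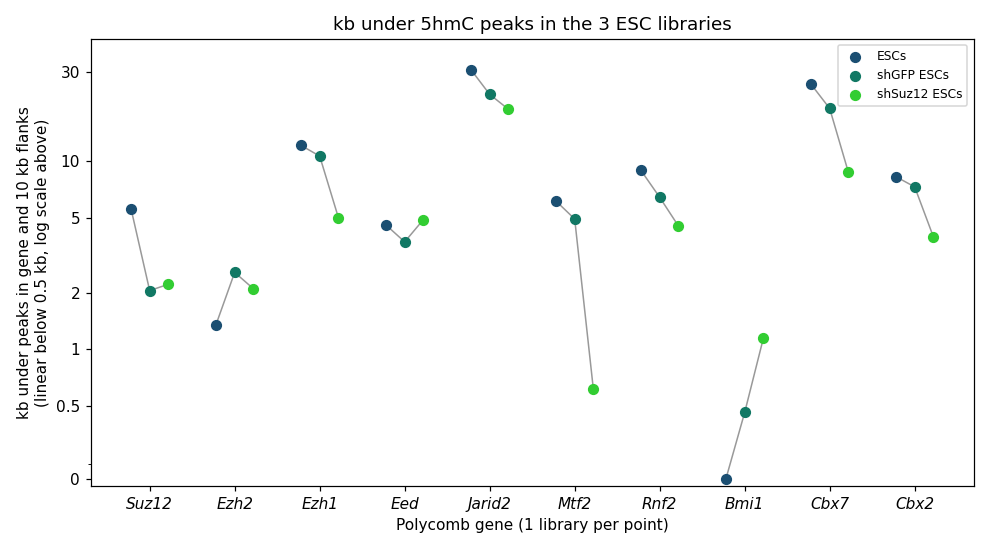
Points give the kb under peaks in each gene and its 10 kb flanks in the 3 ESC libraries, on a scale that is linear below 0.5 kb and logarithmic above, and grey lines join the points of a gene. Mtf2 drops from 4937 bp in shGFP to 610 bp in shSuz12, and Eed and Bmi1 do not drop.

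A list of 26 further Polycomb genes, made up with results of these data known, was read in the same way. Rbbp7, Bcor and Kdm6a of this list lie on chromosome X, which held few peaks in any library. Cbx8 lies next to Cbx2, and their windows share peaks. Of these, 13 had a promoter peak in ESCs, 12 in MEFs, 4 in brain, 15 in liver, 10 in shGFP and 5 in shSuz12, a larger share than of the 10 members in every library but brain. The shares of all protein-coding genes were 31.9, 30.1, 20.0, 29.4, 27.1 and 21.4% in the same order. In all 4 cell types the promoter peak was present for Aebp2, an accessory PRC2 subunit, Phf19, a Polycomb-like protein, Pcgf5, a PRC1 subunit, and Scmh1. The share of all protein-coding genes with a promoter peak in all 4 was not counted. A promoter peak in shGFP and none in shSuz12 was found for Rbbp4, Pcgf1, Phc2, L3mbtl2, Scmh1 and Kdm6b, 6 of 26 (12.0% of all protein-coding genes), and the reverse for Bcor (6.25%). The most covered in ESCs were Pcgf2, a relative of Bmi1, with 49.6% of its window under peaks, L3mbtl2 with 42.6% and Cbx6 with 35.7%. Unlike Bmi1, Pcgf2 was covered in every library, from 15.4% in shSuz12 to 56.7% in liver. Covered bases were at least 2-fold lower in shSuz12 than in shGFP for 11 of the 26 (20.4% of all protein-coding genes) and at least 2-fold higher for 0 (6.97%).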

How the data were processed

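The data were 6 deposited peak lists of GLIB-Seq, 1 library per condition. Per the labels and the methods, the authors mapped reads to mm9 with Bowtie 0.12.7, kept unique and non-redundant reads and called peaks in each library with MACS 1.4.1, without pooling. Each deposited list gives the position and the score of a peak, and the score was read as 10 times the log10 of the p-value with its sign turned, since no header states its scale. For none of the lists are a threshold and a control library given in the sources used here. The lists begin at different scores, which moves the number of weak peaks in each.

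Mitochondrial peaks (1 to 3 per list) were left out. Genes were taken from GENCODE M1 on NCBIM37, the assembly of mm9 (chromosome 1 has 197195432 bp, and 0 peaks passed a chromosome end), and the TSS is the 5′ end of the gene. Intervals of shares are exact 95% ones (Clopper-Pearson) and cover counting error alone. The background is the same measure over all 22367 protein-coding genes. For overlaps, scores and CpG of peaks it is the whole peak list, which also holds peaks away from genes. No test was made between libraries. All 10 members and every peak were named by rule. The members, the list of 26 further genes and the alternatives were chosen with earlier results of these data known. Alternatives were a common score of 80, the upper 50% of each list, equal numbers of peaks, other flanks, midpoints and other promoters, and, added after the peaks were seen, leaving out the 5 commonest scores of each list. Sequences are from NCBIM37, outside annotated untranslated regions. The CpG background is 8527783 tiles of 300 bases. Counting was tested on simulated peaks and recovered in 2000 of 2000 windows. Python 3.11.15, numpy 2.4.6, scipy 1.17.1 and matplotlib 3.10.9 were used.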

Additional observations from a re-analysis of the deposited data

How the results depend on the processing

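No paired analysis was possible because all conditions had a single library. Of 84 recomputed counts 57 stayed within 1.5 times the reported count and 27 moved. Some of the 57 could not move: the ESC and liver lists begin at the common score of 80, and the equal number of peaks was that of the liver list. The alternatives leave fewer peaks or change the window or promoter, and the cause was not tested beyond that. With a common score of 80 the members' peaks came to 20 in MEFs, 15 in brain, 45 in shGFP and 6 in shSuz12, with 0 members with a promoter peak in MEFs, brain and shSuz12. In the upper 50% of each list they came to 50 in ESCs, 30 in MEFs, 50 in brain, 52 in liver, 37 in shGFP and 46 in shSuz12, with a promoter peak at 1 member in ESCs, 0 in MEFs and 1 in brain. With equal numbers of peaks there were 39 in MEFs, and a promoter peak at 1 member in ESCs and 0 in MEFs. Promoters of 2 kb on each side held a peak at 4 members in MEFs and 4 in brain. Promoters of 500 bp held one at 1 member in ESCs, 1 in brain, 2 in liver, 1 in shGFP and 0 in shSuz12, and any coding TSS gave 2 in shSuz12. The ratio of shSuz12 to shGFP bases, 0.652 as reported, stayed below 1: 0.102 with a common score of 80, 0.677 in the upper 50%, 0.638 with equal numbers, 0.667 without flanks, 0.631 with 5 kb flanks and 0.557 without repeated scores. The lists begin at different scores, the read depth is unknown, and without replicates no spread can be given.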
